A study of Mus musculus with 4 samples.

Results

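The genes described here carry dietary fat through the intestinal epithelium. They are the 10 rows of the deposited matrices named Apoa1, Apoa4, Apob, Apoc3, Fabp1, Fabp2, Mttp, Cd36, Npc1l1 and Dgat2, out of 31054 listed features, and all 10 were present under 1 gene ID each. RNA was measured in single cells sorted from the intestinal epithelium of mice with the Bmi1-GFP genotype, in which green fluorescent protein reports transcription of the Bmi1 locus. The 4 groups, with 1 library each, were embryos at embryonic day 12.5 (E12.5), embryos at embryonic day 17.5 (E17.5), adults, and irradiated adults. All 4 groups carried the reporter. The dose of irradiation, the interval to sampling, the number of animals pooled, and the ages and sexes of the adults are not in the labels. With 1 library per group no difference between groups can be set against a spread between animals, so no test was made. All intervals are 95% intervals of counting error only.

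Barcodes with fewer than 500 genes, or with over 20% of UMIs from mitochondrial genes, were left out. A UMI, or unique molecular identifier, stands for 1 captured RNA molecule, and because the chemistry reads the 3′ end of each transcript a UMI count does not grow with transcript length. Levels are UMIs of the gene per 1e+06 UMIs (CPM), both summed over the cells of a class. After removal of putative doublets, between 3031 and 4409 cells per library remained, with 29750596 to 82301354 UMIs. Median depth per cell was 18098 UMIs for E12.5 and 10994 for E17.5, and 3606 and 8547 UMIs for the untreated and irradiated adults. Between 6 and 12 barcodes were shared by any pair of libraries. Epcam, the epithelial adhesion gene used to check the label, had a UMI in 85.7% to 93.5% of cells. The E17.5 library also held 533 pancreatic acinar-like, 238 islet-like and 260 non-epithelial cells. Classes were assigned from marker genes that did not include the 10 genes, and the 10 genes were also kept out of the clustering.

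Absorption of fat runs in steps. CD36 promotes fatty acid uptake and NPC1L1 takes up cholesterol at the brush border. The fatty acid binding proteins FABP1 and FABP2 carry fatty acids in the cytosol, and DGAT2 catalyses the last step of triglyceride synthesis. The microsomal transfer protein encoded by Mttp then loads lipid onto apolipoprotein B, the structural protein of the chylomicron, while APOA1, APOA4 and APOC3 are carried on the surface of lipoprotein particles. Enterocytes are the cells best known for this work. Enteroendocrine cells secrete hormones and sense lipid, and tuft cells are rare chemosensory cells.

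Apoa1, Apoc3 and Apoa4 are neighbours on mouse chromosome 9. In GRCm38, Apoa1 lies at 46228580 to 46230466 on the + strand, Apoc3 at 46232933 to 46235636 on the - strand and Apoa4 at 46240696 to 46243459 on the + strand, a span of 14.9 kb. Fabp2 (122895072 to 122899506, + strand) and Mttp (138089854 to 138144968, - strand) lie far apart on chromosome 3. Cd36 is on chromosome 5 at 17781690 to 17888801, Fabp1 on chromosome 6 at 71199827 to 71205023 and Dgat2 on chromosome 7 at 99153658 to 99182719. Npc1l1 is on chromosome 11 at 6211013 to 6230143 and Apob on chromosome 12 at 7977648 to 8016835. The files give 1 count per gene, so exons and transcript forms are not told apart. The upstream sequences of Fabp1, Fabp2 and Apob are shown because the results turn on where their transcripts were found: Fabp1 with little Fabp2 in tuft-like cells, and Apob with little Mttp in enteroendocrine-like cells. The sequences are from RefSeq (GRCm38.p6), on the + strand, and end at the base before the first annotated exon. Each lies outside the transcript, upstream of the gene. Capitals mark any of 6 short motifs searched on both strands: CAAAGTCCA and CAAAGG (forms of the HNF4 site), GTTAAT (HNF1 half-site), AGATAA (a site of GATA factors), TTTATG (CDX) and AGGTCA (nuclear receptor half-site).
Fabp1 chr6:71199629-71199826: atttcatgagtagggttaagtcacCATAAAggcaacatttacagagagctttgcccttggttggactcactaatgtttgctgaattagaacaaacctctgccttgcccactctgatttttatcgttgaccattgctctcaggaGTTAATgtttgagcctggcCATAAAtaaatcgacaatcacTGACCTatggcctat
Fabp2 chr3:122894822-122895071: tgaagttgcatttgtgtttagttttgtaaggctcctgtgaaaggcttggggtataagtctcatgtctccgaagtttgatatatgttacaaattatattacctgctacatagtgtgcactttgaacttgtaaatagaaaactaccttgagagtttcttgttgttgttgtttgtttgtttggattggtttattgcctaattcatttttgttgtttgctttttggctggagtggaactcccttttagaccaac
Apob chr12:7977427-7977647: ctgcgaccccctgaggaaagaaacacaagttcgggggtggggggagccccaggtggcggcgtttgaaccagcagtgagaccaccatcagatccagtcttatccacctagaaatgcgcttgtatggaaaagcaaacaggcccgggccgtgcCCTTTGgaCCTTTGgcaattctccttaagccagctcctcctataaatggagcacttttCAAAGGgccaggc

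The window of Fabp1 held 4 matches: GTTAAT once, TTTATG in the reverse direction in 2 places, and AGGTCA in reverse once. The Apob window held CAAAGG in 3 places, and the Fabp2 window held none of the 6 motifs. Promoter sequences were found for 8 of the 10 members. Over the 250 bases before the start, CAAAGG was in 2 of the 8 and in 17.6% of all 32851 promoters. GTTAAT was in 2 of 8 against 6.43% of all, TTTATG in 2 of 8 against 10.8%, and AGGTCA in 3 of 8 against 14.0%. No member matched CAAAGTCCA or AGATAA, which were in 0.384% and 9.99% of all promoters. A match is only a description of the letters in this window.

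The 10 genes had 3 main places of high level (the heat map of levels by library and class). In enterocyte-like cells all 10 were present, at E17.5 and in the adult. In tuft-like cells Fabp1 alone was high. In enteroendocrine-like cells of the adult libraries Apoa1, Apob and Apoc3 were present at intermediate levels, in a subset of cells.

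**Figure D1:**
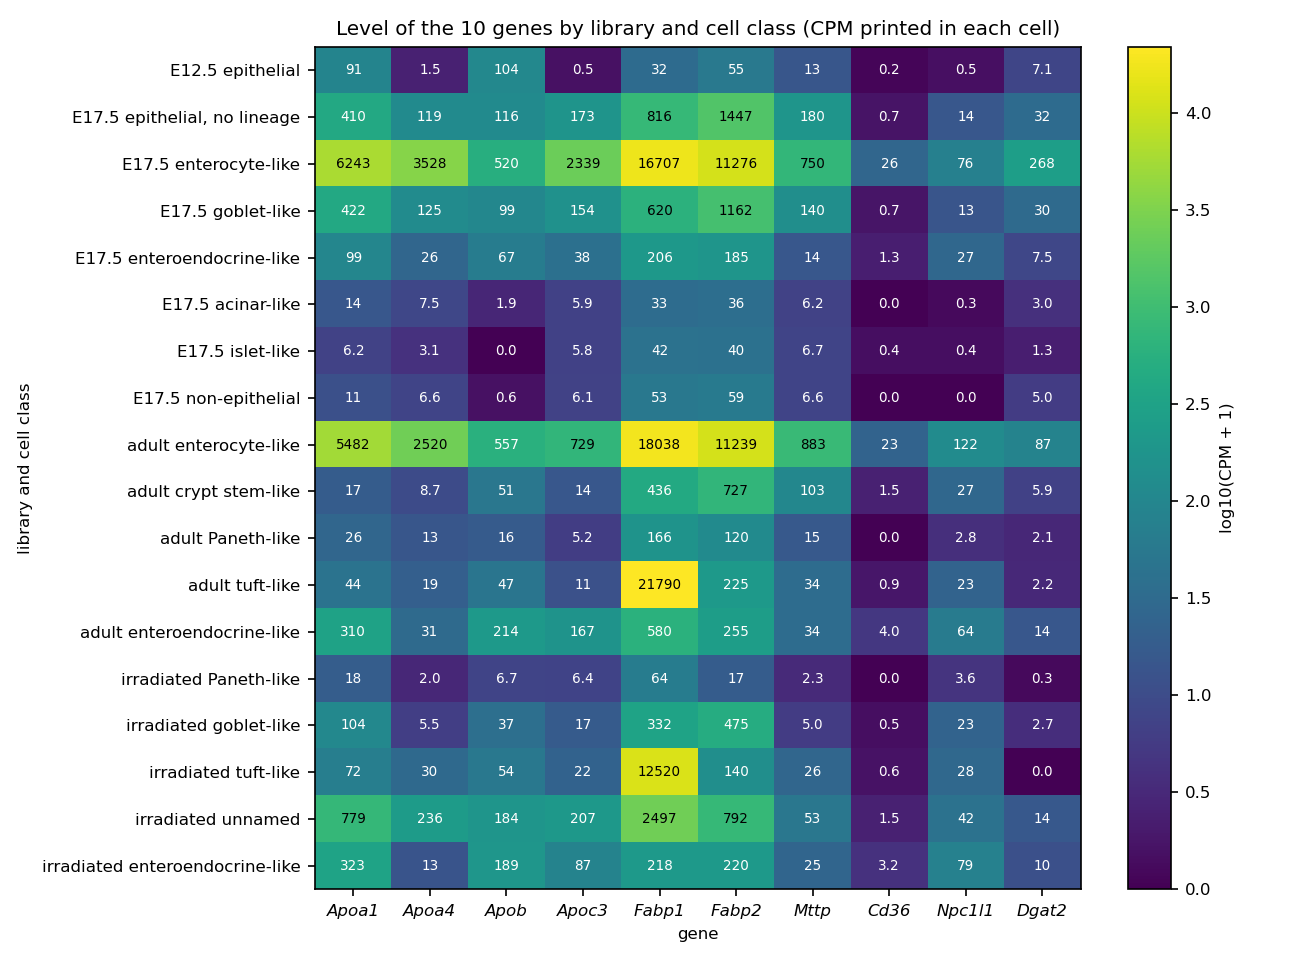
Level of each gene in CPM (printed) and as log10(CPM + 1) (colour) for each library and cell class, from UMIs summed over the cells of the class. Enterocyte-like rows are bright for most genes, and in the tuft-like rows Fabp1 stands alone at 21790.3 CPM in the adult and 12519.8 CPM after irradiation.

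At E12.5 no cluster was named as a mature gut lineage, and the members fell into a detected and a nearly undetected set. Enteroendocrine markers summed to 200 CPM, led by Pyy at 40.4 CPM, and rare cells of that lineage were not looked for. Apob led with 101 CPM (99.1 to 104) in the 4050 cells, followed by Apoa1 with 89.6 CPM (87.6 to 91.7). Fabp2 stood at 53.9 CPM, Fabp1 at 31.3 CPM, Mttp at 13.3 CPM and Dgat2 at 7.16 CPM. Apoa4, the apolipoprotein that the gut releases on fat feeding, stood at 1.43 CPM. The other three, Apoc3, Npc1l1 and Cd36, were at 0.522, 0.522 and 0.340 CPM from 43, 43 and 28 UMIs. Of the 3 neighbours on chromosome 9, Apoa1 was therefore present while Apoc3 and Apoa4 were close to 0. Cd36 was highest in a small cluster led by Acta2, Wnt6 and Krt5, at 11.2 CPM, and in the unnamed cluster with pancreatic genes such as Cpa1 and Pdx1, at 5.25 CPM.

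Within E12.5, Apoa1, Fabp1 and Fabp2 were highest in the clusters led by Onecut2 and Sfrp5, and Onecut2 is a transcription factor of the proximal small intestine. The 3 clusters with these 2 genes among their leading genes had Onecut2 at 404 to 445 CPM. There Apoa1 was 138, 191 and 165 CPM, Fabp2 88.8, 109 and 111 CPM, and Fabp1 45.8, 55.8 and 58.0 CPM. The association with Onecut2 was not uniform. A cluster of 41 cells led by Nepn, with Nkx6-3 and Pdx1, had the highest Onecut2, 1263 CPM, and Apoa1 at 62.6, Fabp2 at 47.6 and Fabp1 at 25.8 CPM, and a shallow cluster with Onecut2 at 401 CPM had 105, 43.3 and 21.7 CPM. In the largest cluster, led by Sp5, Apoa1 was 36.1 CPM, Fabp2 21.7 CPM and Fabp1 20.3 CPM. A cluster led by Postn and Hoxb9, a distal Hox gene, had Fabp2 at 5.20 CPM and Fabp1 at 10.2 CPM, with Apoa1 at 74.1 CPM. Fabp2 thus spanned 5.20 to 111 CPM over the Onecut2 and Sfrp5, Sp5 and Hoxb9 clusters, and Mttp 11.7 to 15.9 CPM. Apob differed from this order. It was 111 CPM in the Sp5 cluster, 96.6 to 125 CPM in the Onecut2 clusters, 55.5 CPM in the Hoxb9 cluster and 24.8 CPM in the cluster led by Hoxb13. The highest Apob, 206 CPM, was in a cluster with a median of 1110 UMIs that was led by noncoding RNAs, and Alb was 15.9 CPM and Afp 90.2 CPM there. Hepatocyte markers summed to 650.4 to 705 CPM in the Onecut2 clusters and 883 CPM in the Sp5 cluster, and Alb, the main hepatocyte transcript, was under 1 CPM in these 4 clusters. The part of liver-type transcripts in the E12.5 values was not tested.

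By E17.5 the level of 9 of the 10 members in epithelial cells outside the enteroendocrine-like class was at least 2-fold above E12.5, where 10.7% of all genes tested were at least 2-fold higher. The median log2 ratio was 4.12 for the members and -0.25 for all genes tested. A gene was counted as higher or lower if its log2((CPM + 1)/(CPM + 1)) was at least 1 in size and the higher side had at least 10 UMIs. Apoc3, an inhibitor of lipoprotein lipase, was at 0.522 CPM at E12.5 and 516 CPM at E17.5, a ratio of 988 (733 to 1365). Apoa4 was at 1.43 and 663 CPM, a ratio of 462 (386 to 559). The E12.5 side of these ratios rests on 43 and 118 UMIs. Fabp1 differed 106-fold (102 to 111), Fabp2 55.3-fold, Npc1l1 45.2-fold, Mttp 20.1-fold, Apoa1 14.95-fold, Cd36 13.8-fold and Dgat2 9.73-fold. Apob was the exception. It stood at 101 CPM at E12.5 and 179 CPM at E17.5, a ratio of 1.76 (1.71 to 1.82), so the gene for the structural protein of the particle was within 2-fold of its E17.5 level at E12.5, where Mttp was 20.1-fold below its own. With TMM factors in place of plain totals, Apob passed the mark at a log2 ratio of 1.14. The 2 libraries differ in cell composition, and cell type and stage cannot be told apart in this comparison.

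Inside the E17.5 epithelium the members differed by cluster in the same direction (the plot of E17.5 clusters). The reference points were 2 clusters led by Olfm4 and cell-cycle genes, a cluster led by St3gal4 and Slc7a9 with Alpi and Cldn15 among its top genes, and the enterocyte-like clusters. Apoa4 was 33.5 and 31.8 CPM in the Olfm4 clusters, 344 CPM in the Alpi cluster and 2625 CPM in the main enterocyte-like cluster. Apoa1 was 90.2, 84.7, 1237 and 5702 CPM in the same order, and Apoc3 63.4, 63.8, 465 and 2062 CPM. These 3 secreted apolipoproteins were all under 100 CPM in the Olfm4 clusters. Fabp2 started high: it was 1155, 1100.2, 2508 and 10297 CPM, and it was 59.2 CPM in the non-epithelial cells of the library. Fabp1 was 320.0, 333, 2128 and 15810 CPM, below Fabp2 in the progenitor clusters and above it in enterocyte-like cells. Apob and Mttp differed least between these clusters. Apob went from 87.6 to 501 CPM and Mttp from 133 to 734 CPM, with 209.6 and 335 CPM in the Alpi cluster. Cd36 was 0.296, 0.732 and 1.40 CPM outside the enterocyte-like cells and 20.6 CPM in them. Goblet-like cells of E17.5 had Apoa1 at 422 CPM, Fabp2 at 1162 CPM, close to the Olfm4 clusters, and Apoa4 at 125 CPM. Acinar-like and islet-like cells, which are not known for these genes, had Fabp1 at 32.5 and 42.3 CPM and Apob at 1.87 and 0 CPM. A smaller enterocyte-like cluster of 103 cells had higher values for all 10, with Apoa4 at 19736 CPM and Fabp2 at 28861 CPM, and a median of only 1675 UMIs against 27050.5 in the main cluster. The part of this depth gap in the difference was not tested.

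**Figure D2:**
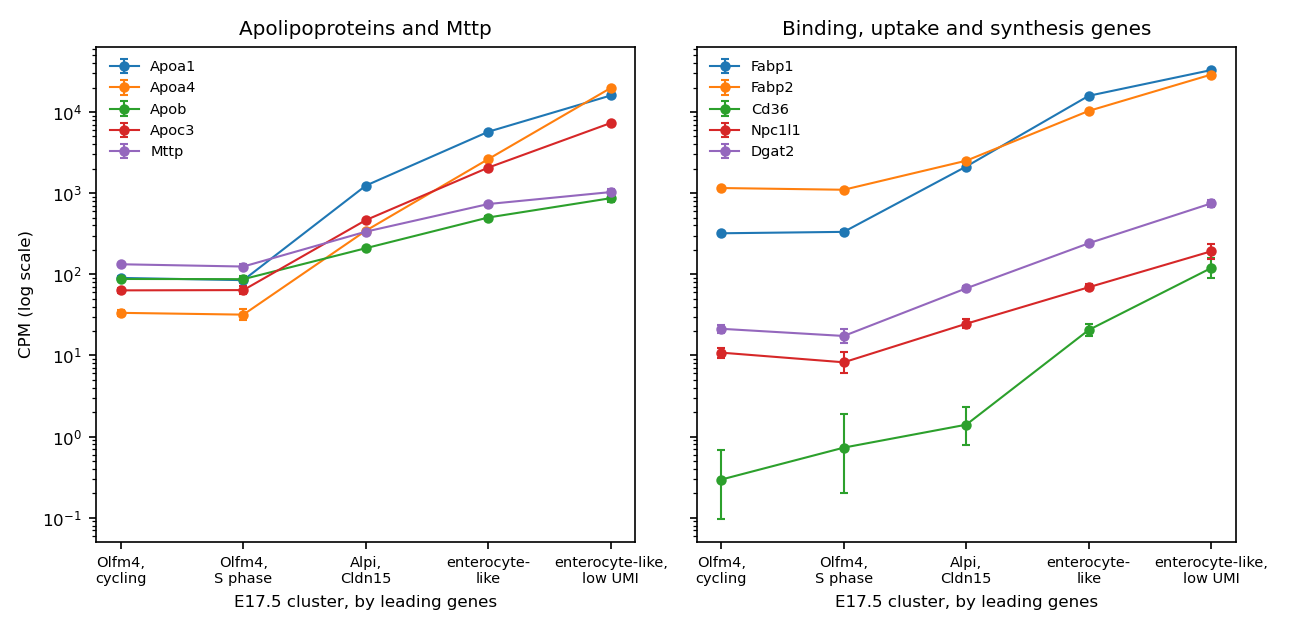
CPM on a log scale in 5 clusters of the E17.5 library, with 95% Poisson intervals. Lines join the values of a gene and do not stand for a measured time course; all 10 genes were higher in the enterocyte-like clusters than in the Olfm4 clusters.

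Fabp1 divided the E17.5 enterocyte-like cells (the distribution of Fabp1 per cell). After each cell was thinned to 2000 UMIs, 320 enterocyte-like cells remained, of which 45 (14.1%) had no Fabp1 UMI, 28 had 1 to 9 and 247 had 10 or more. Counts of 1, of 2 to 3 and of 4 to 7 were found in 3, 4 and 11 cells. Fabp2 was detected in 99.7% (98.3 to 99.99%) of the same cells and Apoa1 in 98.4% (96.4 to 99.5%). In the adult, all 51 enterocyte-like cells of that depth had Fabp1, which allows a share without it of up to 5.88%. The E17.5 cells without Fabp1 had a median of 26189 UMIs before thinning, against 24984 in those with 10 or more, and all 45 lay in the main enterocyte-like cluster.

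The following split was made after these counts were seen and is a description. Cells without a Fabp1 UMI carried Fabp6, the ileal bile acid binding protein, at 112 CPM, against 1.18 CPM in cells with 10 or more Fabp1 UMIs. Slc10a2, the ileal bile acid transporter, was 15.9 against 0.168 CPM. Onecut2 went the other way, at 1.59 against 148 CPM, and Gata4, a proximal transcription factor, was 14.3 against 41.6 CPM. The cells without Fabp1 thus had the 2 ileal genes and little Onecut2. Hoxb9, a distal Hox gene, and Hoxb8 had 0 UMIs in both sets. Creb3l3, an activator of apolipoprotein genes, was 35.0 against 515 CPM. The other members were present in both sets and lower in the cells without Fabp1. Apoa1 was 3842 against 6818 CPM and Mttp 413 against 845 CPM. Fabp2 was 2989 against 13847 CPM and Apoa4 701 against 4061 CPM. Cd36, the fatty acid uptake gene, was 3.18 against 32.4 CPM, Npc1l1 35.0 against 86.0 CPM and Dgat2 114 against 311 CPM. Apob was 222 against 600.3 CPM and Apoc3 1082 against 2707 CPM. Epcam, which is no lipid gene, was 1926 against 1568 CPM.

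**Figure D3:**
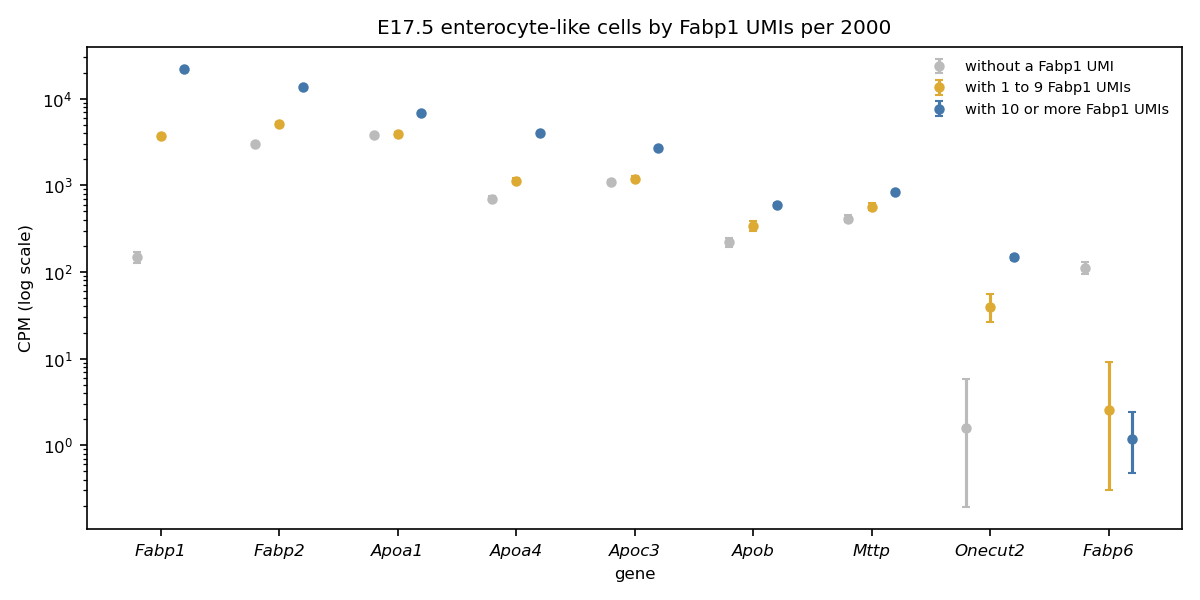
CPM on a log scale in E17.5 enterocyte-like cells grouped by Fabp1 UMIs per 2000 (45, 28 and 247 cells), with 95% Poisson intervals. Fabp1 itself defines the groups; Fabp6 is highest and Onecut2 lowest in cells without a Fabp1 UMI.

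Enterocyte-like cells of the adult, 59 in number, were close to those of E17.5 for 8 of the 10 members. None was at least 2-fold higher in the adult and 2 were at least 2-fold lower, where 11% of genes tested were higher and 21.9% lower. Fabp2 was 11276 CPM (11203 to 11349) at E17.5 and 11239 CPM (11094 to 11385) in the adult, and the intervals overlapped. Fabp1 was 16707 and 18038 CPM, Apob 520.0 and 557 CPM and Mttp 749.5 and 883 CPM. Apoa1 was 6243 and 5482 CPM and Apoa4 3528 and 2520.4 CPM. The lower 2, a share near that of all genes, were Apoc3 and Dgat2. Apoc3 was 2339 CPM at E17.5 and 729 CPM (692 to 767) in the adult, 3.21-fold lower, and Dgat2 was 268 CPM and 86.6 CPM (74.3 to 100.3), 3.09-fold lower. Dgat1, the other enzyme of the last step of triglyceride synthesis, went the other way, at 217 CPM at E17.5 and 649 CPM in the adult. Npc1l1 was 75.7 and 122 CPM, and Cd36 25.8 and 23.5 CPM. The adult cells also carried Gip, a hormone gene, at 10369.5 CPM, and the part of free RNA from other cells in their member levels was not tested. The sort was for Bmi1-GFP, and these few cells need not stand for adult enterocytes at large.

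Enteroendocrine-like cells numbered 1403 at E17.5, 2222 in the adult and 1918 after irradiation. Set against other epithelial cells of the same library, 9 of the 10 members were at least 2-fold lower at E17.5, where 15.3% of genes tested were lower, and none was higher (22.8% of genes). In the adult 5 were lower (12.7% of genes tested) and after irradiation 3 (7.5%). In the adult Apob was at least 2-fold higher (28.8% of genes), at 214 CPM (206 to 222) against 103 CPM (98.3 to 108). Its log2 ratio ran from 0.57 to 1.92 over 15 alternative settings and was past 1 in 11 of them. In the irradiated library Npc1l1 and Cd36 were higher (22.1% of genes). Npc1l1 was 79.0 against 26.4 CPM, and Cd36 3.22 against 0.808 CPM from 57 and 17 UMIs. The other epithelial cells were of different kinds in each library. By number of cells they were mostly progenitors and enterocyte-like cells at E17.5 and mostly tuft-like cells in the adult. After irradiation 458 of the 1113 were unnamed cells, some from clusters set aside although they carried enteroendocrine markers. The 23 enteroendocrine markers summed to 48046 CPM in these unnamed cells, against 215273 CPM in the irradiated enteroendocrine-like class. Summed UMIs give deeper cells more weight. The 127 adult crypt stem-like cells had a median of 47005 UMIs, against 4114 UMIs in the 975 tuft-like cells. The 5 members lower in the adult were Apoa1, Apoa4, Fabp1, Fabp2 and Mttp. The 59 adult enterocyte-like cells held 11210 of the 11625 Apoa1 UMIs of the other epithelial cells. They also held 5154 of 5352 for Apoa4, 22983 of 29179 for Fabp2 and 1806 of 2685 for Mttp. For Fabp1, tuft-like cells held 100661 of 141006 UMIs and enterocyte-like cells 36887. The counts of members that were higher or lower carry that difference of makeup too.

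Between E17.5 and the adult, the level of 7 members in enteroendocrine-like cells was at least 2-fold higher (11.3% of genes tested) and none was lower (9.87%). Apoc3 was 38.3 CPM (34.7 to 42.2) at E17.5 and 167 CPM (160.0 to 174) in the adult. Apob was 66.6 CPM (61.8 to 71.7) and 214 CPM (206 to 222). Apoa1 was 98.7 CPM (92.8 to 105) and 309.6 CPM (299.996 to 319). These 3 apolipoprotein genes differed by 4.36-fold, 3.21-fold and 3.14-fold. Fabp1, Cd36, Mttp and Npc1l1 differed by 2.82, 3.03, 2.40 and 2.39-fold, and Apoa4, Fabp2 and Dgat2 by less than 2-fold. Tuft-like cells, with Fabp1 at 21790.3 CPM in the adult, were not found as a class at E17.5. The part of free RNA in the Fabp1 difference was not tested. With putative doublets kept, which also redrew the clusters, 4 members passed in place of 7. The hormone makeup differed as well, with 77 Gip-dominant cells at E17.5 and 1012 in the adult. With the dominant hormone matched, the Apoa1 log2 ratio was -0.24 in Sst-, 0.14 in Gip-, 0.79 in Cck-, 1.21 in Nts- and 1.72 in Sct-dominant cells. Apoc3 was 1.68, 0.35, 0.20, -0.44 and 2.99 in the same order, Apob 1.74, 0.51, 2.20, 0.87 and 1.95, and Fabp1 1.40, 0.60, 0.04, 4.36 and 1.21. Apob was thus higher in the adult in all 5 groups, and Apoa1 and Apoc3 at least 2-fold higher in 2 of the 5 each. In Gip-dominant cells the Apob ratio was 1.43, with an interval of 0.99 to 2.15. The Apoa1 ratio in Nts-dominant cells rests on 10 adult and 14 E17.5 UMIs, with an interval of 0.93 to 5.69. That of Apoc3 in Sst-dominant cells rests on 43 and 7 UMIs, with an interval of 1.51 to 8.93.

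Free RNA can place UMIs of an abundant gene in cells that do not make it, so levels were set beside classes of the same library with low values. In the adult, Apoa1 was 44.2 CPM in tuft-like, 25.8 CPM in Paneth-like and 17.2 CPM in crypt stem-like cells, against 309.6 CPM in enteroendocrine-like cells. Apob was 47.0, 16.3 and 51.4 CPM against 214 CPM, and Apoc3 10.8, 5.16 and 13.9 CPM against 167 CPM. These 3 were above all 3 classes. Apoa4 was 19.5, 13.4 and 8.67 CPM against 30.7 CPM, and Mttp 33.8, 15.2 and 103 CPM against 33.6 CPM, so neither stood clear of the other classes. Nor did Fabp1, at 21790.3 CPM in tuft-like cells against 580.3 CPM. There were 10.1 Apoa1 UMIs per Apoa4 UMI in enteroendocrine-like cells and 2.18 in enterocyte-like cells. The part of free RNA in any of these values was not tested. After thinning to 2000 UMIs, Apoa1 was detected in 24.4% (22.4 to 26.5%) of adult enteroendocrine-like cells and in 7.76% (6.10 to 9.70%) of tuft-like cells, and Apob in 29.3% (27.2 to 31.5%) and 8.09% (6.397 to 10.1%). Without thinning, the shares in enteroendocrine-like cells were 32.7% for Apoa1 and 44.4% for Apob. Median depth was 3189.5 UMIs in enteroendocrine-like and 4114 UMIs in tuft-like cells.

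Apoa1 and Apoc3 were concentrated in enteroendocrine-like clusters led by Chga and Tph1, the genes of chromogranin A and of serotonin synthesis that mark enterochromaffin cells. In the adult cluster led by Afp, Chga and Tph1, Apoa1 was 1022 CPM (986 to 1058), Apoc3 594 CPM (567 to 622) and Apob 432 CPM (408 to 456). After thinning, 65.1% (59.6 to 70.3%) of its cells had Apoa1. A second adult cluster with Chga and Tph1 had Apoa1 at 414 CPM, Apob at 359.6 CPM and Apoc3 at 95.3 CPM. The other 5 adult enteroendocrine-like clusters had Apoa1 between 21.7 and 98.1 CPM. The largest irradiated cluster, led by Cartpt, had Apoa1 at 1110.1 CPM (1080.1 to 1141) with Apob at 322 CPM and Apoc3 at 235 CPM. At E17.5 the cluster led by Sct, Chga and Tph1 had Apoa1 at 509 CPM (463 to 559), and the remaining 7 clusters had 24.4 to 191 CPM, the highest of them the one led by Reg4 and Tac1 with Tph1. By single cells thinned to 2000 UMIs, Apoa1 was detected in 24.2% of E17.5 enteroendocrine-like cells with a Tph1 UMI and 7.42% of those without. The shares were 44.4% and 10.2% in adult cells, and 50.1% and 6.95% after irradiation. In the adult the neighbouring gene Apoc3 was detected in 26.2% of cells with Tph1 and 4.23% of cells without, and Apob in 44.0% and 19.0%. Afp, a gene of fetal liver, was among the top genes of some of the Chga and Tph1 clusters. The 11 hepatocyte markers summed to 3619 CPM in enteroendocrine-like cells at E17.5, 1145 CPM in the adult and 799.7 CPM after irradiation, and to 236 CPM, 36.7 CPM and 1901 CPM in the other epithelial cells. The last sum was mostly Afp, at 1754 CPM. It includes an unnamed irradiated cluster led by Afp, Tac1 and Trpa1 with Chga among its top genes. That cluster had Apoa1 at 849 CPM (807 to 894) and Apoc3 at 554 CPM. The part of liver-type transcripts in the apolipoprotein values was not tested.

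Grouping the enteroendocrine-like cells by the hormone gene that took most of their hormone UMIs gave another view of the members (the plot by dominant hormone). Sct-dominant cells, those with mostly secretin RNA, had the highest Apoa1 in each library, at 222, 732 and 794 CPM at E17.5, in the adult and after irradiation. Gip-dominant cells had 64.8, 71.7 and 49.6 CPM. Apob was high in Sst-dominant, that is somatostatin, cells as well, at 99.9, 336 and 288 CPM, where Apoa1 was 38.1, 32.1 and 63.2 CPM. Sst-dominant cells thus had Apob with little Apoa1, and Sct-dominant cells had both. Tph1 was the dominant gene in only 2, 4 and 3 cells, so nearly all cells with Tph1 lay outside a Tph1 group. How many Sct-dominant cells were in the Chga and Tph1 clusters was not counted. Dgat2 was 24.0 CPM in adult and 23.5 CPM in irradiated Sst-dominant cells, 22.3 and 18.9 CPM in Gip-dominant cells, and 3.56 and 4.64 CPM in Cck-dominant cells. The Dgat2 values rest on 24 adult and 39 irradiated UMIs in Sst-dominant cells, and on 90 and 52 in Gip-dominant cells. These 2 groups were too close to rank. In both adult libraries the Sst-dominant cells had the lowest Fabp2 of the groups compared.

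The 2 binding protein genes had different orders by hormone. In the adult as a whole, Fabp2 was 255 CPM in enteroendocrine-like cells, beside 225 CPM in tuft-like and 727 CPM in crypt stem-like cells, so it did not stand clear of other classes, and the part of free RNA in it was not tested. Fabp1 in Gip-dominant cells was 567, 862 and 622 CPM, and in Sst-dominant cells 94.4, 250.5 and 132 CPM. Fabp2 in Cck-dominant cells, those of cholecystokinin, was 209, 505 and 336 CPM, and in Gip-dominant cells 189.6, 169 and 109 CPM. In adult Nts-dominant cells, which numbered 62 with the fewest UMIs per cell, both were higher still, at 1215 and 592 CPM. Depth was checked for Fabp1 in the Gip-led adult clusters. It was 760.0 CPM in the cluster with a median of 2323 UMIs and 937 CPM in the one with 13599. For comparison, Paneth-like cells had Fabp1 at 1228 CPM in a cluster with a median of 1912.5 UMIs and 65.0 CPM in one with 30927, so in that class a low depth went with a high level. Npc1l1 was low in Gip-dominant cells, at 6.48, 22.6 and 13.8 CPM. In Sct-dominant cells it was 35.5, 95.3 and 115 CPM. Adult enterocyte-like cells were at least 2-fold above enteroendocrine-like cells for 9 of the 10 members (11.8% of genes tested) and at least 2-fold below for none (41%). Npc1l1 was the exception at 1.91-fold (1.65 to 2.20). The ratio was 2.61 for Apob, 26.3 for Mttp, 44.0 for Fabp2 and 82.2 for Apoa4.

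**Figure D4:**
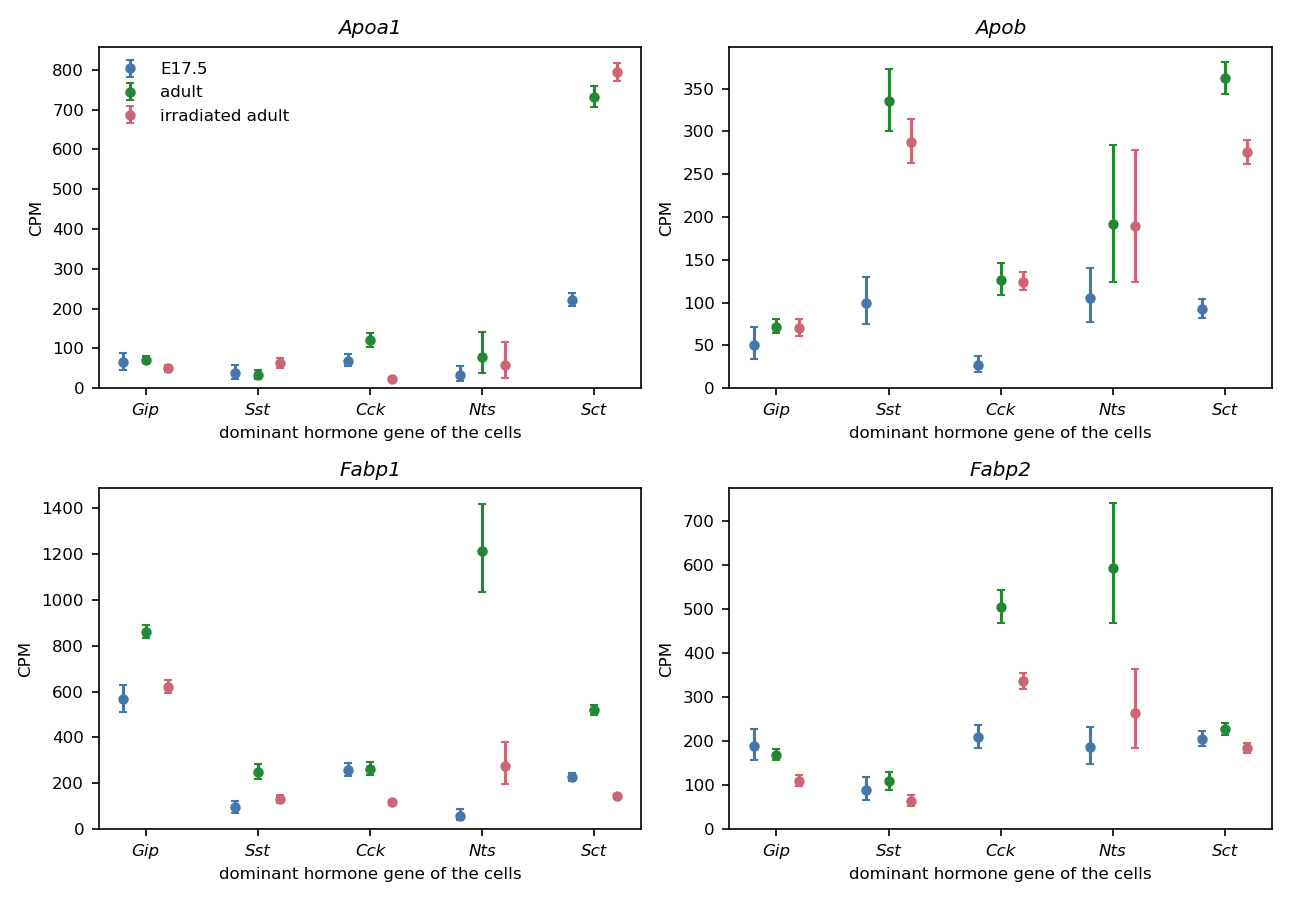
CPM of 4 members in enteroendocrine-like cells grouped by dominant hormone gene, for E17.5, adult and irradiated adult libraries, with 95% Poisson intervals and axes from 0. Apoa1 is highest in Sct-dominant cells of all 3 libraries, and Apob is also high in adult and irradiated Sst-dominant cells.

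Mttp, whose product loads lipid onto apolipoprotein B, was low in the enteroendocrine-like class, where Apob was present. Mttp was 14.0, 33.6 and 25.05 CPM at E17.5, in the adult and after irradiation. There were 4.77, 6.36 and 7.56 Apob UMIs per Mttp UMI in these cells. In enterocyte-like cells the ratio was 0.694 at E17.5 and 0.631 in the adult. At E12.5, before enterocyte-like cells were found, it was 7.74. A high ratio was not limited to enteroendocrine-like cells. Goblet-like cells had 0.707 at E17.5 and 7.36 after irradiation, and Paneth-like cells 1.07 in the adult and 2.94 after irradiation.

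Fabp1 was the only member that was high in tuft-like cells. It was 21790.3 CPM (21656 to 21925) in the 975 adult tuft-like cells, from 100661 UMIs, and 18038 CPM (17855 to 18223) in adult enterocyte-like cells. Tuft-like cells thus stood slightly above enterocyte-like cells for this gene. The 4 adult tuft-like clusters had 6395, 21249, 21442 and 29808 CPM, the lowest in the cluster led by Dclk1 with a median of 2218 UMIs. After thinning, Fabp1 was detected in 99.3% (98.6 to 99.8%) of adult tuft-like cells, with a median of 36 UMIs per 2000. Paneth-like cells had it in 46.5% (38.1 to 55.0%). Fabp2 was 225 CPM in the same tuft-like cells, beside 119.6 CPM in Paneth-like and 727 CPM in crypt stem-like cells. There were 96.9 Fabp1 UMIs per Fabp2 UMI in adult tuft-like cells, 89.3 in irradiated ones and 1.60 in adult enterocyte-like cells. Against enteroendocrine-like cells, Fabp1 was the only one of the 10 at least 2-fold higher in tuft-like cells (10.3% of genes tested), at 37.6-fold (36.7 to 38.5), and 6 were at least 2-fold lower (33.9%). Among the lipid genes fixed for comparison, Dbi, an acyl-CoA binding protein, was 2303 CPM in tuft-like and 241 CPM in enteroendocrine-like cells. Fabp5, another binding protein, was 63.9 and 2791 CPM. Of Fabp1, Fabp2 and Fabp5, the highest in tuft-like cells was thus Fabp1 and the highest in enteroendocrine-like cells Fabp5.

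**Figure D5:**
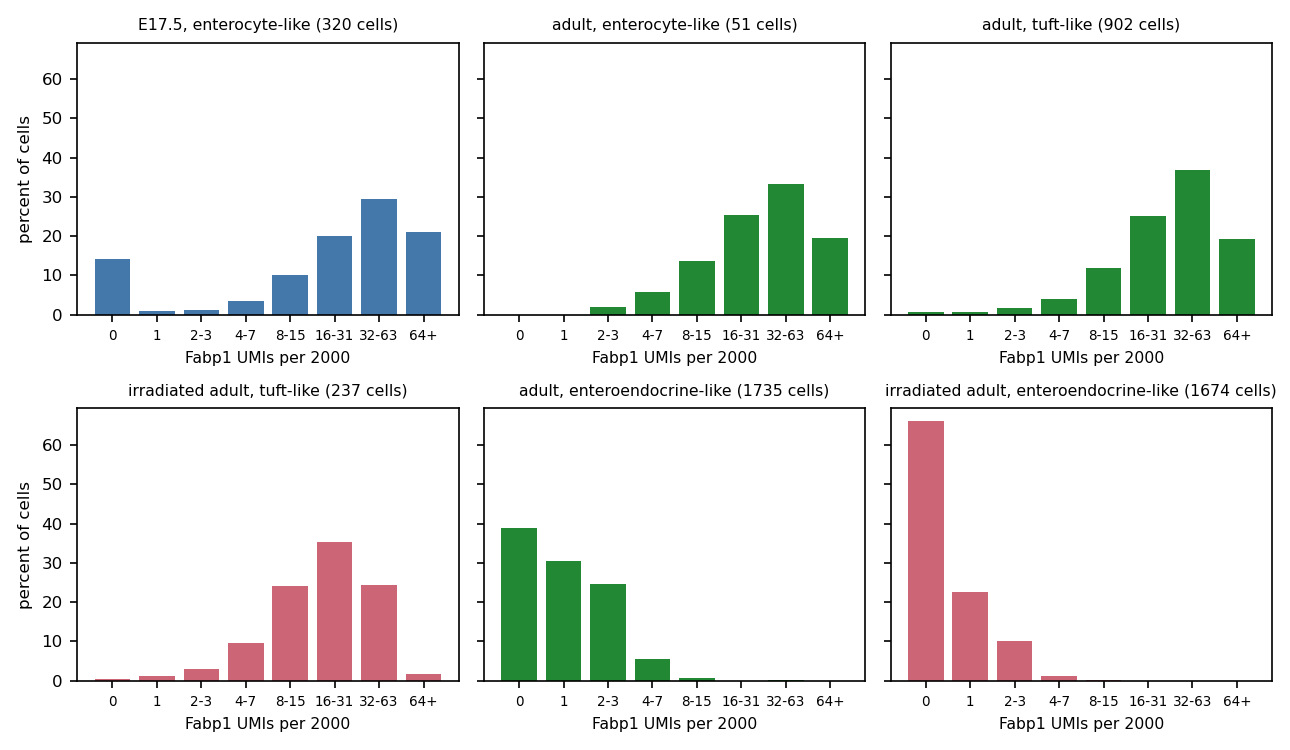
Share of cells by Fabp1 UMIs after thinning to 2000 UMIs per cell, in bins that widen to the right, for 6 library and class groups. E17.5 enterocyte-like cells have a separate group of 14.1% at 0, and most tuft-like cells have 4 or more UMIs, with under 1% at 0.

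After irradiation none of the members was at least 2-fold higher in enteroendocrine-like cells (1.34% of genes tested) and 2 were at least 2-fold lower (2.82%). Fabp1 was 580.3 CPM (567 to 594) in the adult and 218 CPM (211 to 225) after irradiation, 2.66-fold lower. Apoa4 was 30.7 CPM (27.7 to 33.8) and 12.6 CPM (11.0 to 14.4), 2.43-fold lower, at levels not clear of other classes. Apoc3 was 167 and 87.5 CPM, 1.91-fold lower, with a log2 ratio between -0.93 and -0.27 over 15 alternative settings. The irradiated Afp- and Chga-led cluster, with Apoc3 at 554 CPM, was unnamed and so outside this class, while the adult cluster led by Afp and Chga was inside it. With each cluster's first name kept, an alternative added after seeing the data that returns that cluster, the Apoc3 log2 ratio was -0.37. Apoa1 was 309.6 and 323 CPM, Apob 214 and 189 CPM, and Npc1l1 63.97 and 79.0 CPM, which are within 1.5-fold in the class as a whole. By dominant hormone the Apoa1 log2 ratio was -2.32 in Cck-, -0.52 in Gip-, 0.12 in Sct- and 0.96 in Sst-dominant cells, and that of Apob between -0.39 and -0.02. Over 15 alternative settings the Fabp1 log2 ratio ran from -2.10 to -1.01 and that of Apoa4 from -1.42 to -0.41. Fabp1 was past 2-fold in all 15 settings and Apoa4 in 8. None of these settings matched the dominant hormone.

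A lower Fabp1 after irradiation was also measured in other classes, and its size varied with the dominant hormone, a difference that was not tested. The hormone makeup differed, with 1012 Gip-dominant cells in the adult and 438 after irradiation. With the dominant hormone matched, the Fabp1 log2 ratio was -0.47 in Gip-dominant, -0.92 in Sst-dominant, -1.17 in Cck-dominant and -1.86 in Sct-dominant cells. It was thus within 2-fold in Gip- and Sst-dominant cells. In Paneth-like cells, which are taken here as a class with little Fabp1 of its own, Fabp1 was 166 CPM in the adult and 64.3 CPM after irradiation. Median depth was 3189.5 UMIs in adult and 8649.5 UMIs in irradiated enteroendocrine-like cells. The part of free RNA, depth and hormone makeup in the lower value was not tested. In tuft-like cells Fabp1 was 21790.3 and 12519.8 CPM, 1.74-fold lower, and it was detected in 99.6% of them. No member was at least 2-fold higher in irradiated tuft-like cells (4.48% of genes). Dgat2 was the 1 counted as lower (3.05%), from 10 UMIs in the adult to 0, which at 3 UMIs in 1554340 allows up to 1.93 CPM, so no difference was detectable at this depth.

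In the other epithelial cells, 5 members were at least 2-fold lower after irradiation (7.94% of genes tested) and none was higher (10%). Mttp was 158 CPM (152 to 164) in the adult and 28.5 CPM (26.3 to 30.9) after irradiation. Fabp2 was 1717 and 449 CPM, Fabp1 8297 and 2177 CPM, Apoa4 315 and 115 CPM, and Cd36 3.65 and 0.808 CPM from 62 and 17 UMIs. The cells differed in kind. The adult library had 59 enterocyte-like cells and 975 tuft-like cells among 1375, and the irradiated library had no enterocyte-like cluster and 275 tuft-like cells among 1113. Paneth-like cells numbered 214 with a median of 2903 UMIs in the adult, and 90 with a median of 99767.5 UMIs after irradiation. The irradiated cells also included 458 unnamed ones. Paneth markers summed to 124858 CPM in the adult and 211777 CPM after irradiation, and enteroendocrine markers to 6304 and 27110 CPM. Without tuft-like cells, an alternative added after seeing the data, 7 members were lower. When each cell's CPM was averaged, 2 were. Makeup and level per cell cannot be told apart in these sums.

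The irradiated library had an unnamed cluster of 99 cells, led by Ccnd1 and with Apoa4 second among its top genes. Its cells had a median of 50518 UMIs. There Apoa4 was 419 CPM (401 to 436), Fabp1 3086 CPM, Fabp2 1392 CPM, Apoa1 837 CPM and Mttp 79.6 CPM. These are the highest Apoa4, Fabp2 and Mttp of any irradiated cluster, and each lies below the adult enterocyte-like level. A cluster led by Clu, Anxa3 and Ly6a, genes of regenerating epithelium, had Fabp1 at 1064 CPM, Fabp2 at 608 CPM and Apoa4 at 12.3 CPM, with a median of 1399.5 UMIs. In that cluster the 23 enteroendocrine markers summed to 57678 CPM, led by Cck, and their part in its member levels was not tested.

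The other genes of the pathway, 98 in 8 lists, were also counted. Between E12.5 and E17.5, in other epithelial cells, 45 of the 96 tested were at least 2-fold higher and 6 lower, against 10.7% and 17.9% of all genes. Fatty acid oxidation and ketogenesis genes were higher in 10 of 11. In triglyceride synthesis, 9 of 15 were higher, with Mogat2, the monoacylglycerol acyltransferase of enterocytes, at 7.40 CPM at E12.5 and 130.0 CPM at E17.5. Of the 20 regulators 11 were higher. Creb3l3 was 0.0486 and 94.3 CPM and Hnf4a, a transcription factor that binds many enterocyte genes, 24.7 and 88.8 CPM. Of the 10 chylomicron assembly genes 4 were higher, among them Apobec1, the editor of Apob RNA, at 0.0243 and 4.90 CPM. Of the sterol handling genes 3 of 13 were higher. Among the lower ones, Fabp5 was 621 and 111 CPM, and Ffar4, a receptor for long-chain fatty acids, 46.0 and 3.26 CPM.

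In enteroendocrine-like cells set against other epithelial cells, 19 pathway genes were at least 2-fold higher and 36 lower of 97 at E17.5, 22 and 18 of 94 in the adult, and 20 and 11 of 95 after irradiation. Over all genes tested, 22.8%, 28.8% and 22.1% were higher and 15.3%, 12.7% and 7.5% lower, so the share of higher pathway genes was near that of all genes. The lipid receptors were higher in 6 of 6, 4 of 5 and 5 of 6. Ffar1, a receptor for long-chain fatty acids, was 72.2, 150.3 and 181 CPM in enteroendocrine-like cells, and 0.885, 6.06 and 9.98 CPM in the others. Ffar3, a receptor for short-chain fatty acids, was the exception in the adult libraries, with 338 CPM in adult tuft-like cells. Fabp5 was 848, 2791 and 2103 CPM in enteroendocrine-like cells, above Fabp1 and Fabp2 there, and 111, 114 and 128 CPM in the others. Mogat2 and Prap1, a lipid-binding partner of MTTP, were at least 2-fold lower in all 3 libraries, with Prap1 at 73.7, 99.4 and 60.6 CPM in enteroendocrine-like cells and 924, 756 and 315 CPM in the others. Between E17.5 and the adult, 23 of 96 pathway genes were at least 2-fold higher in enteroendocrine-like cells and 11 lower, against 11.3% and 9.87% of all genes. The regulator Creb3l3 was 3.21 and 24.7 CPM, and Mgll, which cleaves monoacylglycerol, 47.8 and 354 CPM. In the list of other apolipoproteins 6 of 9 were lower, opposite to the members, with Apom at 105 and 24.3 CPM and Apoe at 10.8 and 2.27 CPM. After irradiation, 1 of 95 pathway genes was at least 2-fold higher in enteroendocrine-like cells and 5 lower, against 1.34% and 2.82% of all genes. Among the lower ones were Acsl3, Scarb1, Idi1 and Fabp6, the last on 74 and 2 UMIs and named after its values were seen. Scarb1, the high-density lipoprotein receptor, was 129 and 57.3 CPM, and Idi1, an enzyme of isoprenoid and cholesterol synthesis, 95.3 and 43.8 CPM.

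The genes whose level was most like that of each member were found over 21 groups of library and class with at least 50 cells, by Pearson's r of log2(CPM + 1), among genes with 50 CPM or more in a group. The groups share libraries and depth, and r is a description. Mttp was closest to Mogat2 (r = 0.959) and Slc51b (r = 0.948), and Dgat2 to Plin3, a lipid droplet coat gene (r = 0.952), and Tmem37 (r = 0.942). Apob was closest to Pla2g12b (r = 0.936) and Gipc2 (r = 0.909). Apoc3 was closest to Creb3l3 (r = 0.945) and Rbp2 (r = 0.922), and Apoa4 to Lct, the lactase gene (r = 0.926), and Ifit1bl2 (r = 0.923). Apoa1 was closest to Acot4 (r = 0.908) and Cyp3a13 (r = 0.904). Fabp1 was closest to Tmem253 (r = 0.951) and Tmem236 (r = 0.935), and Fabp2 to Nr1i3 (r = 0.955) and Prap1 (r = 0.952). Npc1l1 was closest to Tm4sf5 (r = 0.962) and Abcb1a (r = 0.959), and Cd36 to Slc27a4, a fatty acid transporter (r = 0.855), and Ace (r = 0.824).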

How the data were processed

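RNA was measured by droplet sequencing with 3′ version 3 chemistry, per the labels' protocols, in 4 libraries of sorted intestinal epithelial cells. The authors deposited raw UMI counts per gene and barcode, made with Cell Ranger 3.1.0 on mm10, per the submitters' processing notes. The rule that selected barcodes, and the annotation, are not given in the sources used here. Barcode totals were 90674425, 77677622, 38648331 and 50761353 UMIs at E12.5, E17.5, adult and irradiated adult. The members and gene lists were chosen with earlier results of these data known.

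Barcodes under 500 genes or over 20% mitochondrial UMIs were dropped. Scrublet's own threshold marked at most 0.174% of cells and was not used; the highest-scoring cells were removed at 0.8% per 1000 cells. Each library was clustered (scanpy 1.11.5, 2000 variable genes, 30 components, 20 neighbours, leidenalg 0.10.2 at resolution 1) without the 10 members and the 98 pathway genes. Clusters were named from fixed markers by a mean scaled score of at least 0.5 and 3 detected markers (50 CPM, 10% of cells). A cluster was set aside as unnamed for more markers of another class among its top 10 genes, for low UMIs, or for enteroendocrine and tuft markers together. These thresholds and reasons were set after the clusters were seen. Other epithelial cells are epithelial or unnamed cells outside the enteroendocrine-like class, without acinar-like and islet-like cells.

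UMIs were summed by class and given as CPM with exact Poisson intervals. Ratios carry exact binomial intervals of the counts. Shares of cells, after thinning to 2000 UMIs, carry Clopper-Pearson intervals, and shallower cells were left out. A hormone was dominant with at least 10 UMIs and 50% of a cell's hormone UMIs. Members and, where past 2-fold with 100 UMIs, list genes are named, with the 2 genes most like each member. Gene positions are from GENCODE M21 (GRCm38), matched by gene ID for 10 of 10. Steps were tested on simulated counts. Alternatives were a stricter filter, doublets kept, resolutions 0.5 and 2, members among the clustering genes, no clusters, edgeR 4.0.16 TMM factors, mean CPM per cell, mitochondrial and ribosomal genes left out, pseudocounts of 0.1 and 10 CPM, count minimums of 50 or none, and thinning to 1000 or 4000 UMIs or none. After seeing the data, 3 were added: first cluster names kept, low-UMI clusters left out, and tuft-like cells left out. Values of some list genes are not reported here.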

Additional observations from a re-analysis of the deposited data

Results flagged for a closer look

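Apob was on opposite sides in enteroendocrine-like cells at E17.5 and in the adult. Its log2 ratio to other epithelial cells of the same library was -1.41 at E17.5 and 1.04 in the adult, both at least 2-fold, and it drew attention because the 2 stages differ in sign. Apob was 66.6 against 179 CPM at E17.5 and 214 against 103 CPM in the adult. Cd36 was likewise opposite at E17.5 and after irradiation, with log2 ratios of -1.29 and 1.22, on 14 and 57 UMIs in enteroendocrine-like cells and 238 and 17 in the others. The median log2 ratio over all genes tested was 0.13 at E17.5, 0.44 in the adult and 0.51 after irradiation. Over 15 alternative settings Apob ran from -1.72 to -1.16 at E17.5 and from 0.57 to 1.92 in the adult. Cd36 ran from -2.15 to -0.38 at E17.5 and from 0.29 to 1.87 after irradiation. With 1 library per group the difference between libraries was not tested for either gene. The cells that make up the other epithelial class differ between these libraries, as given in the report.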

How the results depend on the processing

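Of 152 recomputed counts of members, 137 stayed within 1.5 times the reported count and 15 moved; the cause was not tested unless given here. The count lower after irradiation in enteroendocrine-like cells (2) was 1 under the stricter filter, with doublets kept, at resolution 0.5, with members among the clustering genes, with mean CPM, with a pseudocount of 10 CPM and with first names kept, and 4 without clusters. In other epithelial cells after irradiation, 5 lower became 8 without clusters and 2 with mean CPM, and 0 higher became 1 with mean CPM. Enteroendocrine-like against other epithelial cells, 5 lower in the adult became 1 without clusters, and 3 lower after irradiation became 1 under the stricter filter and 0 without clusters. The 7 higher in the adult over E17.5 became 4 with doublets kept. Without clusters, a cell was enteroendocrine with 3 marker UMIs, which left 147 adult and 89 irradiated cells as others.

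Of 1060 recomputed log2 ratios, 52 changed sign, 44 of them where the reported ratio was under 2-fold and 8 where it was past 2-fold; the 8 follow. In enteroendocrine-like against other epithelial cells, the stricter filter gave 0.063 for Apoa1 in the adult, and 0.41 for Apoa4 and 0.20 for Fabp2 after irradiation. Without clusters Fabp1 was 1.08 in the adult, and after irradiation Apoa4 was 0.61, Fabp1 1.08 and Fabp2 0.59. Mttp in the adult over E17.5 was -0.64 with doublets kept. With TMM factors the all-gene median went from -0.25 to -0.07 for E17.5 over E12.5, and from 0.44 to 0.02 for enteroendocrine-like over other cells in the adult, 0.51 to 0.01 after irradiation and 0.13 to -0.12 at E17.5; the first count then was 10 in place of 9, Apob included.

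No paired analysis was possible because each group has 1 library. Depth limits Cd36, Npc1l1, Apoc3 and Apoa4 at E12.5, with 28, 43, 43 and 118 UMIs, and adult shares, since cells under 2000 UMIs were left out.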

Other observations

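Enterocyte-like cells of E17.5 and the adult differed in some sterol genes. Insig1, a sterol sensor partner, was 385 CPM at E17.5 and 40.6 CPM in the adult, and Hmgcs1, an early enzyme of cholesterol synthesis, 274 and 94.9 CPM. Abcg5 and Abcg8, which encode the sterol exporter that opposes NPC1L1, went the other way, at 7.16 and 52.3 CPM and 4.69 and 73.8 CPM. Of 12 sterol handling genes tested, 6 were at least 2-fold lower in the adult and 3 higher, where 21.9% of all genes tested were lower and 11% higher.

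A few lipid genes beside Fabp1 were above the enteroendocrine-like level in adult tuft-like cells. Apobec1 was 103 against 12.5 CPM, Cideb, a lipid droplet protein, 149 against 35.2 CPM, Lima1, an NPC1L1 partner, 1029 against 142 CPM, and Pparg, a nuclear receptor for lipids, 46.3 against 3.68 CPM. Pla2g12b, whose profile was most like that of Apob, went the other way, at 2.60 against 31.7 CPM. Of 94 pathway genes tested, 13 were at least 2-fold higher and 42 lower in tuft-like cells, against 10.3% and 33.9% of all genes, so the share higher was near that of all genes.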
